A study of Mus musculus with 20 samples.

Results

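Matrix metalloproteinases (Mmp), the disintegrin-like metalloproteinases with thrombospondin motifs (Adamts) and the tissue inhibitors of metalloproteinases (Timp) were followed across normal mouse bladder, bladder tumours, treated bladders and metastases. They were chosen by name: every row of the array table whose annotation gave 1 symbol of the form Mmp, Adamts or Timp followed by a number was taken, with the brightest row kept where a symbol had several. This gave 44 genes of the 30142 in the table, 22 Mmp, 18 Adamts and 4 Timp genes, each with a single row. The rule itself used no measured difference between groups, though the genes were chosen with earlier results of these data known.

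The series held 20 arrays, 1 per sample, in 5 groups of mice on the FVB/N background. All groups carried floxed alleles, Rb f/f among them, and lacked p107 (p107-/-). The 5 normal bladders (numbered 1, 2, 4, 5 and 6) had received no Cre, and the 7 tumour bladders (1 to 7) came from mice given an adenovirus encoding Cre recombinase into the bladder, so that the floxed genes were lost in whichever cells took up the virus. The 3 treated bladders (1 to 3) came from inoculated mice that also received the Cdk4/6 inhibitor palbociclib at 150 mg/kg daily for 28 days, injected into the peritoneum, with 6 mg/kg CDDP (cisplatin) weekly. The remaining samples were 4 metastases (1 to 4) and 1 metastasis labelled PALBO-MET, whose name points to treatment but whose labels give no dose. The labels give neither age nor sex, nor the organ of a metastasis, nor whether samples of a group came from separate animals, so the p-values below measure only the spread between these samples, which may be technical.

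Matrix metalloproteinases are zinc enzymes, made as inactive precursors, that cut collagens, gelatins, elastin, laminin and many surface proteins. Adamts enzymes cut proteoglycans such as versican and aggrecan, trim procollagens, process von Willebrand factor or act on the fibrillin network. The Timp proteins block the active site of both families, and in tumours much of this proteolysis is made by stromal and myeloid cells rather than by the epithelium itself.

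A run of 10 of these genes lies next to one another on chromosome 9 in the RefSeq annotation of GRCm38.p6, in the order Mmp13, Mmp12, Mmp1b, Mmp3, Mmp1a, Mmp10, Mmp8, Mmp27, Mmp20 and Mmp7. The start regions of Mmp3, Mmp10, Mmp12 and Mmp13 from this run are shown with that of the inhibitor Timp1, which lies on the X chromosome, because the levels described below turn on these genes. Each stretch runs from 100 bases before the annotated start to 20 bases after it, 5′ to 3′ on the plus strand of GRCm38.p6, from RefSeq. They lie at chr9:7445722-7445841 (Mmp3), chr9:7502242-7502361 (Mmp10), chr9:7347274-7347393 (the second annotated start of Mmp12), chr9:7272414-7272533 (Mmp13) and chrX:20870066-20870185 (Timp1). Capitals mark the AP-1 word TGAGTCA or its reverse complement TGACTCA, the TATA word TATAAA or TTTATA, and the GC box word GGGCGG or CCGCCC.
Mmp3: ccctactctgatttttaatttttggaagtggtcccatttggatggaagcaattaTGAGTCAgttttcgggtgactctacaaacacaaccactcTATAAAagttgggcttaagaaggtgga
Mmp10: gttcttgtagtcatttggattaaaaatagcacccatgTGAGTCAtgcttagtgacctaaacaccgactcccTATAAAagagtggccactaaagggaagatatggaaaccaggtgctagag
Mmp12: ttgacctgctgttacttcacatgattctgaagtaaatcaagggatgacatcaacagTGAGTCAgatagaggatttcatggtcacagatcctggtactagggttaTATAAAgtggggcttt
Mmp13: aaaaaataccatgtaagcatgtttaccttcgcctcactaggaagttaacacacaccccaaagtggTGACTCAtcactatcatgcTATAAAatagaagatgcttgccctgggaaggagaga
Timp1: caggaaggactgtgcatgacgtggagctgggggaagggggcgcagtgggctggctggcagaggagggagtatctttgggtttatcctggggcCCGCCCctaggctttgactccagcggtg
The AP-1 word began 46 bases before the start of Mmp3, 63 before that of Mmp10, 44 before the second start of Mmp12 and, on the other strand, 35 before that of Mmp13. The TATA word began 7, 29 and 16 bases before the starts of Mmp3, Mmp10 and Mmp13, and 4 bases after the second start of Mmp12. The other annotated start of Mmp12 had neither word, and Timp1 had only the GC box word, 8 bases before its start.

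The words were counted on both strands in RefSeq windows of 300 bases, from 250 before to 50 after the start, for the 30 genes of the set that had one. The 14 without a window were Adamts4, Adamts5, Adamts6, Adamts7, Adamts8, Adamts10, Adamts15, Adamts16, Adamts19, Mmp2, Mmp9, Mmp16, Mmp17 and Mmp19. The AP-1 word stood in 5.2% of all 32851 windows, in 7 of the 10 neighbouring genes (70.0%) and in 0 of the other 20. The TATA word stood in 13.62% of all windows, in 9 of the 10 neighbours (90%) and in 2 of the other 20, Adamts1 and Mmp21. The GC box word ran the other way, with 35.66% of all windows, 0 of the 10 neighbours and 16 of the other 20 (80.0%). These are matches of letters and were not tested as sites of binding.

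**Figure D1:**
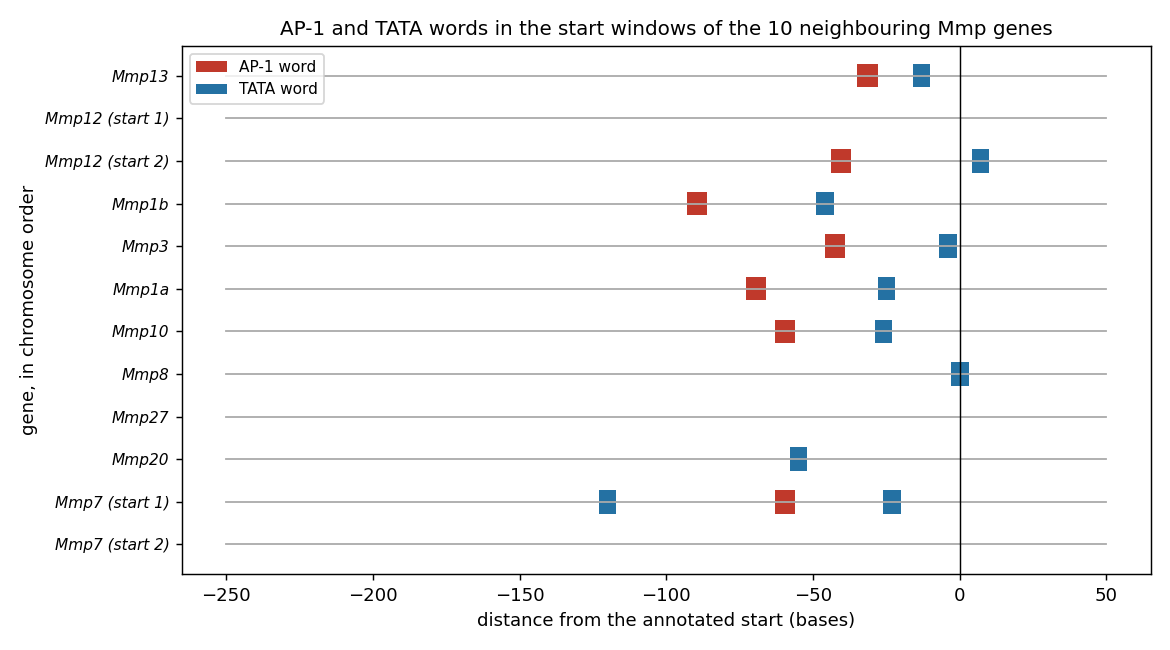
Positions of the AP-1 word (red) and the TATA word (blue) in the 300-base start windows of the 10 neighbouring Mmp genes, in chromosome order; the x axis is the distance from the annotated start in bases, and genes with 2 annotated starts have 2 lines. The AP-1 word lies upstream of the start in 7 of the 10 genes and the TATA word is present in 9.

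Levels are taken as log2 values, the usual output of the RMA method used; the base is not stated in the sources used here. The array medians ran from 5.11 to 5.48. A set of 8 arrays stood apart from the other 12: 3 of the normal bladder (numbers 4, 5 and 6), 3 of tumours (3, 4 and 5) and 2 of metastases (3 and 4). On them the dim genes were noisier, with an SD of 0.34 to 0.37 against 0.23 to 0.33 on the other 12, and none shared its deviations with any other array above a correlation of 0.21, where each of the 12 had a partner at 0.26 or more. Marker lists hardly moved among the 8 across tissue labels: the mean of 14 urothelial markers (uroplakins, keratins) ran from 6.65 to 6.81 and that of 8 smooth muscle markers from 6.72 to 6.88, against 5.05 to 9.22 and 4.68 to 10.25 on the 12. No treated bladder is among the 8. The main differences and counts below are given with and without them. Xist, a long RNA made from the silenced X of female cells, read 11.74 and 11.71 in normal bladders 1 and 2 and 5.43 to 5.86 in the tumour bladders and metastases of the 12, and 7.10, 6.04 and 10.05 in treated bladders 1 to 3. The Y-linked gene Eif2s3y read 4.70 and 4.76 in normal bladders 1 and 2, 4.66 in tumour bladder 6 and 5.59 to 6.43 in the other tumour bladders and metastases of the 12. In treated bladders 1 to 3 Eif2s3y read 5.21, 5.57 and 5.43, so treated bladder 3 had high Xist without the low Eif2s3y of normal bladders 1 and 2. PALBO-MET, outside the ranges above, read 6.44 for Xist and 5.40 for Eif2s3y. On the 8 arrays Xist read 6.74 to 7.19 and Eif2s3y 5.09 to 5.94. Sex markers thus differed between groups on the 12 arrays, and their part in the differences below was not tested. Rb1 read 5.78 to 6.32 in normal and 5.44 to 6.45 in tumour bladders, ranges that overlap, and whether its probes lie in the floxed part is not given.

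Most proteases and inhibitors of the set varied little. The range of a gene over the 20 arrays had a median of 0.87 in the set and 1.01 over all genes, and 5 genes had a range of 2 or more (Mmp3 6.10, Timp1 3.57, Mmp14 2.21, Mmp9 2.16, Mmp7 2.01), against 9.83% of all genes. For 11 of the 44 the mean over the arrays lay under the 40th percentile of all rows, 5.10, where small differences are hard to see. On the 8 arrays 35 of the 44 genes had a smaller SD than on the 12 (50.2% of all genes), with a median SD of 0.181 against 0.243. The highest values gathered on a few arrays. Tumour bladder 6 was the highest of all 20 arrays for 8 genes (9.16% of all genes were highest there). Tumour bladder 2 was the highest for 6 (3.76%), tumour bladder 1 for 6 (15.49%) and metastasis 1 for 5 (8.02%). For tumour bladder 1 the share of the set, 13.6%, was under that of all genes. Some of these arrays held many of the lowest values too. Metastasis 1 was the lowest array for 9 genes (8.51% of all genes), more than it was the highest for. Treated bladder 3 was the lowest for 7 (8.19%), tumour bladder 6 for 6 (8.88%) and tumour bladder 1 for 5 (12.96%). In tissue extracts such as these, more cells of a type and more RNA per cell cannot be told apart.

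**Figure D2:**
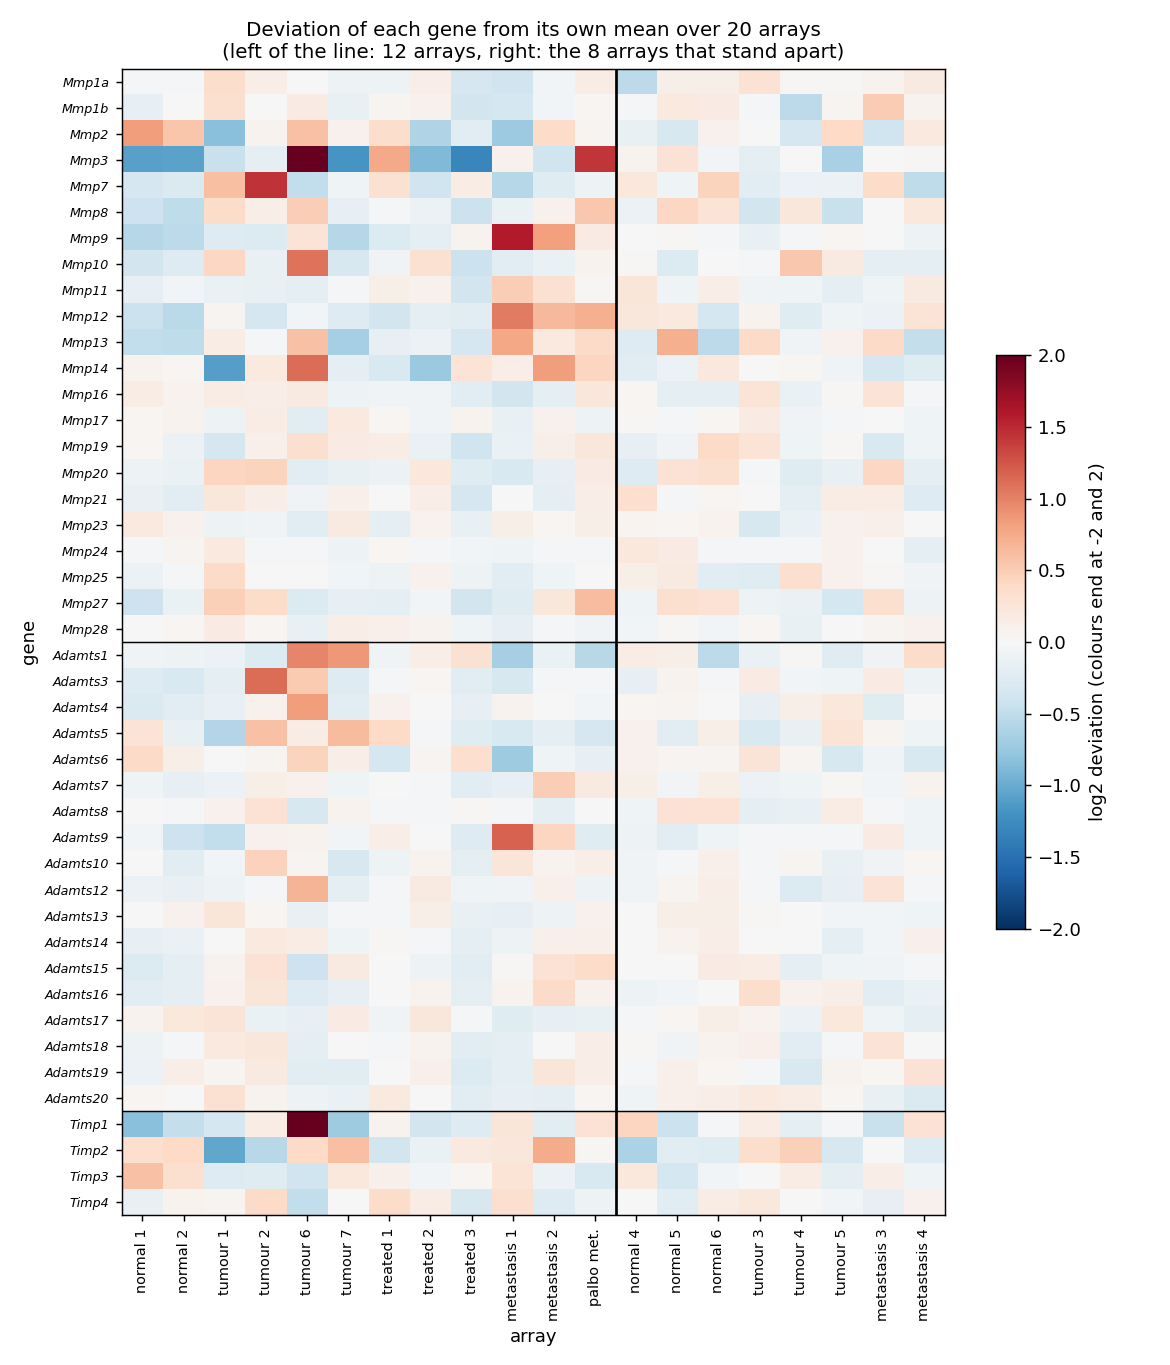
Deviation of each of the 44 genes (y axis) from its own mean over the 20 arrays (x axis), in log2 units, with the 12 arrays left of the heavy line and the 8 that stand apart right of it. Mmp3 and Timp1 in tumour bladder 6 (10.88 and 8.45) and Mmp9 and Adamts9 in metastasis 1 (6.95 and 7.40) stand out, and the right-hand block is paler.

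The stromelysins Mmp3 and Mmp10 cleave proteoglycans, laminin and fibronectin and activate other proteases of the family. Mmp3 read 5.01, 5.02, 6.16, 6.38 and 6.04 in normal bladders 1, 2, 4, 5 and 6, and from 4.91 to 10.88 with a median of 5.89 in the 7 tumour bladders. Its levels were 6.85, 5.20 and 4.78 in treated bladders 1 to 3, 6.17, 5.69, 6.09 and 6.11 in metastases 1 to 4, and 7.51 in PALBO-MET. Tumour bladder 6 stood far above the next tumour bladder (6.08), PALBO-MET and treated bladder 1 came next, and the 4 metastases were close together. Mmp10 read 4.96, 5.08, 5.35, 5.06 and 5.33 in normal bladders 1, 2, 4, 5 and 6, and from 5.01 to 6.41 with a median of 5.51 in the 7 tumour bladders. Its levels were 5.26, 5.63 and 4.90 in treated bladders 1 to 3, 5.13, 5.20, 5.14 and 5.15 in metastases 1 to 4, and 5.40 in PALBO-MET. Tumour bladder 6 was again the highest at 6.41, followed by tumour bladders 4 and 1 at 5.88 and 5.75, and the ranges of normal and tumour bladders overlapped. Mmp11 stood at 4.69, 4.80, 5.09, 4.76 and 4.99 in the 5 normal bladders, at 4.96, 4.93 and 4.49 in the 3 treated bladders and at 5.34, 5.15, 4.76 and 5.03 in the 4 metastases. The 7 tumour bladders ran from 4.65 to 4.83 (median 4.72), and PALBO-MET was at 4.87. Mmp11, stromelysin 3, is a stromal protease activated inside the cell, and its highest values were in metastases 1 and 2 within a span of less than 1 log2 unit over all arrays.

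Neutrophil and fibroblast markers were highest on the array where the stromelysins Mmp3 and Mmp10 were highest, tumour bladder 6. The mean of the 15 neutrophil markers was 7.19 there, the highest of the 20 arrays, with 7 of the 15 highest of all arrays there. S100a8, a calcium-binding protein of neutrophils, read 13.56 there against 4.26 to 7.89 in normal bladder, while the granule genes Mpo (5.11 against 5.07 to 5.31) and Camp (5.78 against 5.35 to 5.99) lay within the normal range and Elane (4.18 against 4.26 to 5.02) under it. The neutrophil mean was 6.86 in PALBO-MET, the array second for Mmp3. The mean of 9 fibroblast markers was 8.48 on tumour bladder 6, also the highest of the 20, and that of 12 macrophage markers was 6.85, while smooth muscle markers stood at 5.35 and urothelial markers at 5.70. The part of these cell types in the levels of Mmp3, Mmp10 and Timp1 was not tested.

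**Figure D3:**
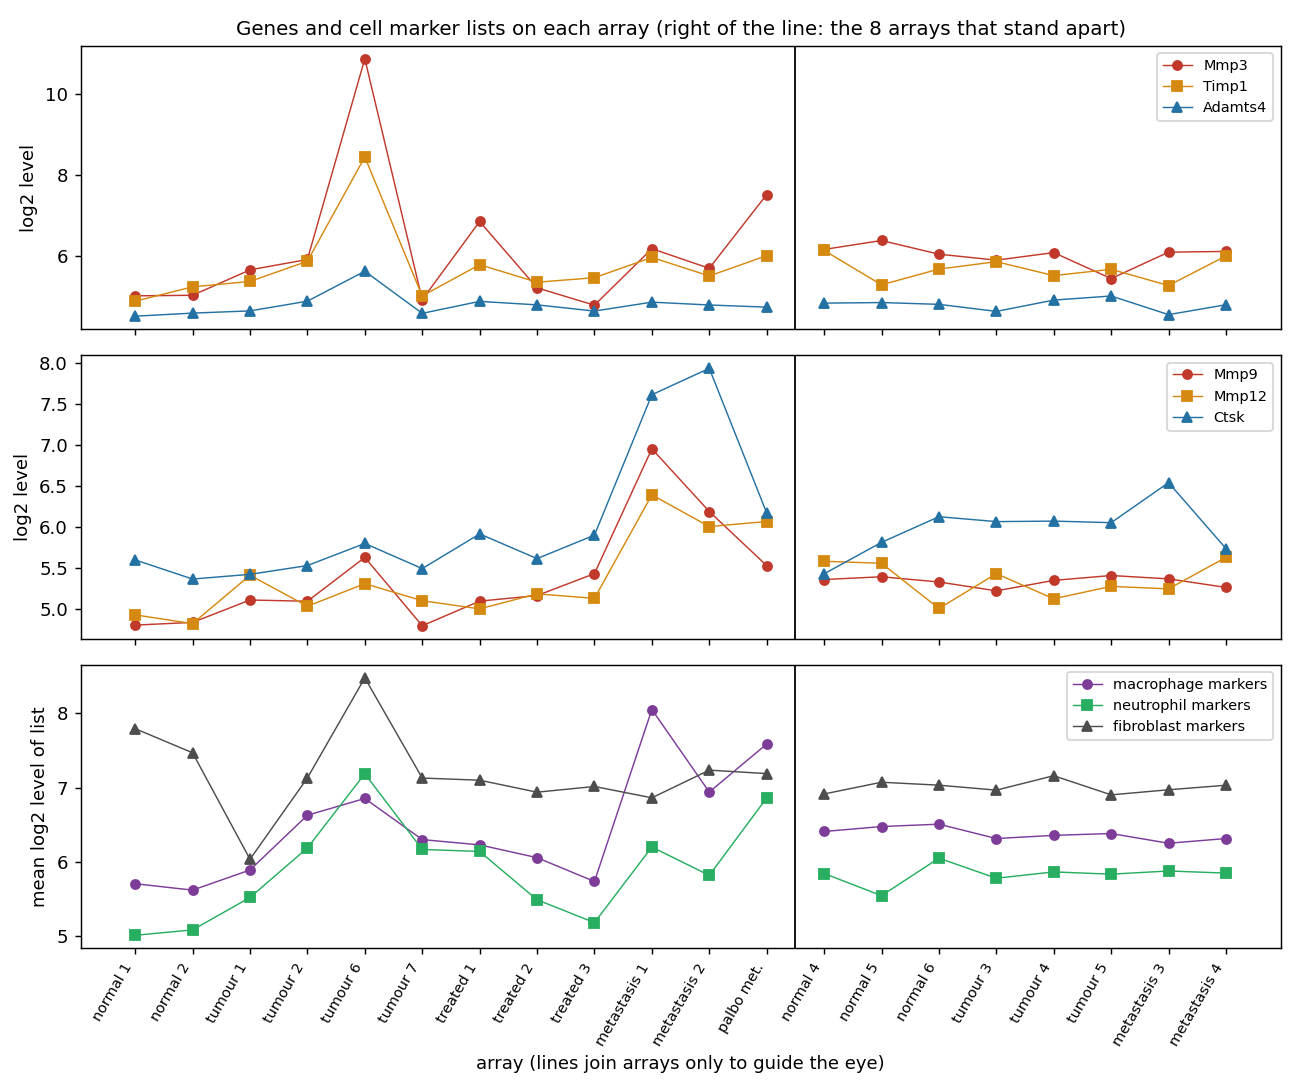
Log2 levels on each array (x axis) of Mmp3, Timp1 and Adamts4 (top), of Mmp9, Mmp12 and the cathepsin gene Ctsk (middle), and mean log2 levels of macrophage, neutrophil and fibroblast marker lists (bottom), with the 8 arrays that stand apart right of the line. Tumour bladder 6 is highest for the upper 3 genes and for the neutrophil and fibroblast markers (7.19 and 8.48), and metastasis 1 is highest for Mmp9, Mmp12 and the macrophage markers (8.05).

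Collagenases cut the triple helix of fibrillar collagens. Mmp1a read 4.74, 4.74, 4.26, 4.89 and 4.88 in normal bladders 1, 2, 4, 5 and 6, and from 4.68 to 5.12 with a median of 4.80 in the 7 tumour bladders. Its levels were 4.68, 4.90 and 4.44 in treated bladders 1 to 3, 4.37, 4.73, 4.84 and 4.95 in metastases 1 to 4, and 4.93 in PALBO-MET. Mmp1a is a rodent interstitial collagenase with a close copy, Mmp1b, in the same chromosome 9 run, so their signals may be mixed; normal bladder 4 was the lowest of all arrays and the groups overlapped throughout. Mmp8 stood at 4.79, 4.69, 5.08, 5.61 and 5.47 in the 5 normal bladders, at 5.16, 5.09 and 4.77 in the 3 treated bladders and at 5.07, 5.29, 5.19 and 5.41 in the 4 metastases. Its tumour bladders lay from 4.76 to 5.69 (median 5.34), and PALBO-MET was at 5.74. The neutrophil collagenase Mmp8 was highest in PALBO-MET and in tumour bladder 6 (5.69), the arrays with the highest neutrophil marker means. Other arrays did not follow that order. Normal bladder 5 came close at 5.61 with a neutrophil mean of 5.55, and metastasis 1 read 5.07 with a mean of 6.20. The part of neutrophils in the level of Mmp8 was not tested. Mmp13, the main collagenase of rodents, read 4.55, 4.54, 4.78, 5.76 and 4.52 in the 5 normal bladders, so that normal bladder 5 alone came near the highest metastasis (5.83) and tumour bladder (5.63).

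The gelatinases Mmp2 and Mmp9 digest denatured collagen and basement membrane collagen, and Mmp12 is the macrophage elastase. Mmp9 read 4.80, 4.83, 5.36, 5.39 and 5.33 in normal bladders 1, 2, 4, 5 and 6, and from 4.79 to 5.63 with a median of 5.22 in the 7 tumour bladders. Its levels were 5.09, 5.16 and 5.43 in treated bladders 1 to 3, 6.95, 6.19, 5.36 and 5.26 in metastases 1 to 4, and 5.53 in PALBO-MET. Metastases 1 and 2 were the only arrays above 6, and metastases 3 and 4 lay among the normal and tumour bladders that stand apart (5.22 to 5.41). Mmp12 read 4.92, 4.82, 5.58, 5.55 and 5.0 in normal bladders 1, 2, 4, 5 and 6, and from 5.03 to 5.43 with a median of 5.27 in the 7 tumour bladders. Its levels were 5.0, 5.18 and 5.13 in treated bladders 1 to 3, 6.39, 6.00, 5.24 and 5.63 in metastases 1 to 4, and 6.06 in PALBO-MET. Metastasis 1, PALBO-MET and metastasis 2 were the 3 highest arrays, while metastasis 3 lay within the range of the normal bladders and metastasis 4 just above it. Mmp2 stood at 7.42, 7.14, 6.44, 6.28 and 6.67 in the 5 normal bladders, at 6.94, 5.99 and 6.36 in the 3 treated bladders and at 5.87, 6.95, 6.20 and 6.79 in the 4 metastases. In the 7 tumour bladders it ran from 5.75 to 7.17 (median 6.66), and PALBO-MET was at 6.65. Mmp2, made mainly by fibroblasts, was highest in normal bladders 1 and 2 and in tumour bladder 6 (7.17), lowest in tumour bladder 1 and metastasis 1, and every pair of groups overlapped.

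Macrophage markers were highest on the same arrays as Mmp12. Their mean was 8.05 in metastasis 1, 7.59 in PALBO-MET and 6.94 in metastasis 2, against 5.62 to 6.85 on the other 9 of the 12 arrays and 6.25 to 6.51 on the 8. Cd68 read 8.01, 8.29 and 7.87 on those 3 arrays and 6.02 to 6.21 in metastases 3 and 4. Mmp9 differed from this order, since PALBO-MET (5.53) lay below metastasis 2 and also below tumour bladder 6 (5.63). Whether the macrophage content of the samples has a part in the levels of Mmp9 and Mmp12 was not tested.

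Membrane-type enzymes act at the cell surface, and Mmp14 among them activates the precursor of Mmp2. Mmp14 read 8.09, 8.06, 7.81, 7.90 and 8.23 in normal bladders 1, 2, 4, 5 and 6, and from 6.93 to 9.14 with a median of 8.02 in the 7 tumour bladders. Its levels were 7.72, 7.27 and 8.30 in treated bladders 1 to 3, 8.16, 8.85, 7.67 and 7.78 in metastases 1 to 4, and 8.45 in PALBO-MET. Tumour bladders held both extremes, with tumour bladder 6 highest and tumour bladder 1 lowest, and metastasis 2 came second. Mmp16 stood at 5.59, 5.51, 5.47, 5.27 and 5.27 in the 5 normal bladders, at 5.38, 5.37 and 5.24 in the 3 treated bladders and at 5.07, 5.25, 5.71 and 5.41 in the 4 metastases. Values in the tumour group ran from 5.31 to 5.72 (median 5.58), and PALBO-MET was at 5.67. Treated bladder 3 and metastases 1 and 2 lay just under the tumour range, and no group of Mmp16, another membrane-type enzyme, was separate. Mmp24 read 4.59, 4.70, 4.85, 4.80 and 4.60 in normal bladders 1, 2, 4, 5 and 6, and from 4.54 to 4.84 with a median of 4.60 in the 7 tumour bladders. Its levels were 4.68, 4.59 and 4.57 in treated bladders 1 to 3, 4.56, 4.60, 4.63 and 4.46 in metastases 1 to 4, and 4.59 in PALBO-MET. Mmp24, known mostly from nervous tissue, varied little over the 20 arrays, with its highest values in normal bladders 4 and 5 and tumour bladder 1.

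The remaining Mmp genes have narrower roles. Mmp7 read 4.84, 4.88, 5.39, 5.10 and 5.63 in normal bladders 1, 2, 4, 5 and 6, and from 4.69 to 6.62 with a median of 5.06 in the 7 tumour bladders. Its levels were 5.48, 4.78 and 5.32 in treated bladders 1 to 3, 4.61, 4.94, 5.55 and 4.67 in metastases 1 to 4, and 5.08 in PALBO-MET. Matrilysin, the product of Mmp7, is made by glandular epithelia, and tumour bladder 2 stood alone at 6.62. Mmp19 stood at 5.83, 5.67, 5.62, 5.71 and 6.17 in the 5 normal bladders, at 5.94, 5.66 and 5.40 in the 3 treated bladders and at 5.66, 5.91, 5.49 and 5.70 in the 4 metastases. The 7 tumour bladders ran from 5.45 to 6.11 (median 5.89), and PALBO-MET was at 6.01. Normal bladder 6 and tumour bladder 6 were the highest arrays for Mmp19, treated bladder 3 was the lowest, and the groups overlapped. Mmp23 read 6.17, 6.06, 6.04, 6.01 and 6.05 in normal bladders 1, 2, 4, 5 and 6, and from 5.66 to 6.16 with a median of 5.88 in the 7 tumour bladders. Its levels were 5.79, 6.06 and 5.84 in treated bladders 1 to 3, 6.09, 6.01, 6.08 and 5.97 in metastases 1 to 4, and 6.10 in PALBO-MET. The 5 normal bladders of Mmp23 were closely grouped, tumour bladders 3 and 6 were the lowest arrays, and the metastases lay close to normal bladder. Mmp27 stood at 4.94, 5.21, 5.26, 5.68 and 5.65 in the 5 normal bladders, at 5.15, 5.30 and 4.98 in the 3 treated bladders and at 5.11, 5.58, 5.68 and 5.25 in the 4 metastases. Its tumour bladders lay from 5.01 to 5.83 (median 5.21), and PALBO-MET was at 5.96. PALBO-MET was the highest array for Mmp27, an enzyme retained in the secretory pathway, followed by tumour bladder 1 at 5.83. Mmp1b, Mmp17, Mmp20, Mmp21, Mmp25 and Mmp28 had no group that was separate from another in the 5 comparisons over all 20 arrays.

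Among the Adamts genes, Adamts1, Adamts4, Adamts8, Adamts9 and Adamts20 belong to the branch that cuts versican and related proteoglycans. Adamts1 read 6.30, 6.27, 6.51, 6.48 and 5.85 in normal bladders 1, 2, 4, 5 and 6, and from 6.10 to 7.34 with a median of 6.25 in the 7 tumour bladders. Its levels were 6.30, 6.49 and 6.66 in treated bladders 1 to 3, 5.71, 6.24, 6.29 and 6.73 in metastases 1 to 4, and 5.81 in PALBO-MET. Tumour bladders 6 and 7 stood above all other arrays for Adamts1, and metastasis 1 was the lowest. Adamts9 read 6.17, 5.80, 6.11, 6.02 and 6.14 in normal bladders 1, 2, 4, 5 and 6, and from 5.73 to 6.31 with a median of 6.19 in the 7 tumour bladders. Its levels were 6.36, 6.21 and 5.97 in treated bladders 1 to 3, 7.40, 6.65, 6.39 and 6.14 in metastases 1 to 4, and 5.98 in PALBO-MET. As for Mmp9, metastases 1 and 2 were the highest arrays, metastasis 3 came next, and metastasis 4 lay within the range of normal and tumour bladder. Adamts20 read 5.41, 5.38, 5.28, 5.47 and 5.5 in normal bladders 1, 2, 4, 5 and 6, and from 5.23 to 5.66 with a median of 5.44 in the 7 tumour bladders. Its levels were 5.56, 5.35 and 5.15 in treated bladders 1 to 3, 5.20, 5.18, 5.21 and 5.08 in metastases 1 to 4, and 5.40 in PALBO-MET. All 4 metastases were under every normal and every tumour bladder, but treated bladder 3 was as low as the metastases and PALBO-MET was level with the bladders. Adamts8 stood at 5.19, 5.15, 5.12, 5.48 and 5.49 in the 5 normal bladders, at 5.16, 5.15 and 5.21 in the 3 treated bladders and at 5.15, 5.0, 5.17 and 5.11 in the 4 metastases. In the 7 tumour bladders it ran from 4.87 to 5.49 (median 5.26), and PALBO-MET was at 5.21. Tumour bladder 6 was the lowest array for Adamts8 (4.87), and the 3 treated bladders were close together. Adamts4, an aggrecanase, was highest in tumour bladder 6 at 5.62, against 4.5 to 5.0 on the other 19 arrays.

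Other branches trim procollagens or act on fibrillin microfibrils. Adamts3 read 4.96, 4.92, 5.05, 5.29 and 5.18 in normal bladders 1, 2, 4, 5 and 6, and from 4.95 to 6.33 with a median of 5.17 in the 7 tumour bladders. Its levels were 5.19, 5.26 and 5.0 in treated bladders 1 to 3, 4.89, 5.19, 5.39 and 5.11 in metastases 1 to 4, and 5.17 in PALBO-MET. Adamts3, a procollagen N-proteinase, was high in 2 tumour bladders only, number 2 at 6.33 and number 6 at 5.74. Adamts6 read 6.35, 6.09, 6.05, 6.02 and 6.02 in normal bladders 1, 2, 4, 5 and 6, and from 5.64 to 6.42 with a median of 6.03 in the 7 tumour bladders. Its levels were 5.62, 6.02 and 6.30 in treated bladders 1 to 3, 5.26, 5.88, 5.90 and 5.67 in metastases 1 to 4, and 5.81 in PALBO-MET. The 4 metastases of Adamts6, a relative of the fibrillin-binding Adamts10, were all under the 5 normal bladders, with metastasis 1 lowest, but tumour bladder 5 (5.64) and treated bladder 1 lay among them. Adamts10 stood at 6.09, 5.88, 6.01, 6.06 and 6.19 in the 5 normal bladders, at 5.99, 6.16 and 5.90 in the 3 treated bladders and at 6.32, 6.17, 6.02 and 6.13 in the 4 metastases. Values in the tumour group ran from 5.77 to 6.55 (median 6.05), and PALBO-MET was at 6.23. Tumour bladder 2 was the highest array for Adamts10 and tumour bladder 7 the lowest, so the tumour group spanned all others. Adamts17 read 5.03, 5.18, 4.94, 5.0 and 5.08 in normal bladders 1, 2, 4, 5 and 6, and from 4.79 to 5.21 with a median of 5.03 in the 7 tumour bladders. Its levels were 4.90, 5.18 and 4.94 in treated bladders 1 to 3, 4.71, 4.79, 4.87 and 4.77 in metastases 1 to 4, and 4.81 in PALBO-MET. The metastases of Adamts17, also of the fibrillin-related branch, lay under all 5 normal bladders and met the lowest tumour bladders, numbers 2, 4 and 6. Adamts16 stood at 4.90, 4.94, 5.03, 5.07 and 5.14 in the 5 normal bladders, at 5.14, 5.20 and 4.93 in the 3 treated bladders and at 5.21, 5.52, 4.92 and 4.99 in the 4 metastases. The 7 tumour bladders ran from 4.87 to 5.48 (median 5.22), and PALBO-MET was at 5.22. Metastasis 2 was the highest for Adamts16, and normal bladders 1 and 2 were among the lowest arrays. Adamts13, which cleaves von Willebrand factor, read 5.10 to 5.22 in the 4 metastases and 5.26 to 5.40 in the 5 normal bladders, groups that did not overlap. Adamts12, which can cleave the cartilage protein Comp, stood at 6.34 in tumour bladder 6 and at 5.39 to 5.94 elsewhere.

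The 4 Timp genes had their highest values on different arrays. Timp1 read 4.88, 5.23, 6.13, 5.28 and 5.67 in normal bladders 1, 2, 4, 5 and 6, and from 5.0 to 8.45 with a median of 5.66 in the 7 tumour bladders. Its levels were 5.78, 5.34 and 5.46 in treated bladders 1 to 3, 5.96, 5.5, 5.26 and 6.00 in metastases 1 to 4, and 6.00 in PALBO-MET. Timp1, the secreted inhibitor known to respond to growth and inflammatory signals, was highest in tumour bladder 6, with the next tumour bladder at 5.86, on the array where Mmp3 was also highest, and the other 19 arrays spanned 4.88 to 6.13. Timp2 read 7.97, 8.03, 6.99, 7.40 and 7.39 in normal bladders 1, 2, 4, 5 and 6, and from 6.59 to 8.23 with a median of 7.98 in the 7 tumour bladders. Its levels were 7.26, 7.50 and 7.83 in treated bladders 1 to 3, 7.86, 8.38, 7.64 and 7.37 in metastases 1 to 4, and 7.65 in PALBO-MET. Timp2, which also takes part in Mmp2 activation on Mmp14, was lowest in tumour bladder 1 and highest in metastasis 2, and the tumour group overlapped every other group. Timp3 read 6.36, 6.10, 5.99, 5.43 and 5.72 in normal bladders 1, 2, 4, 5 and 6, and from 5.38 to 5.98 with a median of 5.59 in the 7 tumour bladders. Its levels were 5.87, 5.72 and 5.82 in treated bladders 1 to 3, 6.06, 5.67, 5.92 and 5.69 in metastases 1 to 4, and 5.47 in PALBO-MET. For Timp3, the inhibitor bound to the matrix and the one most active on Adamts enzymes, normal bladders 1 and 2 were the highest arrays and tumour bladder 6 the lowest. Timp4 read 5.23, 5.45, 5.37, 5.15 and 5.52 in normal bladders 1, 2, 4, 5 and 6, and from 4.88 to 5.76 with a median of 5.36 in the 7 tumour bladders. Its levels were 5.74, 5.52 and 5.05 in treated bladders 1 to 3, 5.69, 5.12, 5.22 and 5.47 in metastases 1 to 4, and 5.28 in PALBO-MET. For Timp4, the inhibitor with the narrowest tissue range, tumour bladder 2 was the highest array and tumour bladder 6 again the lowest, and no pair of groups was separate.

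**Figure D4:**
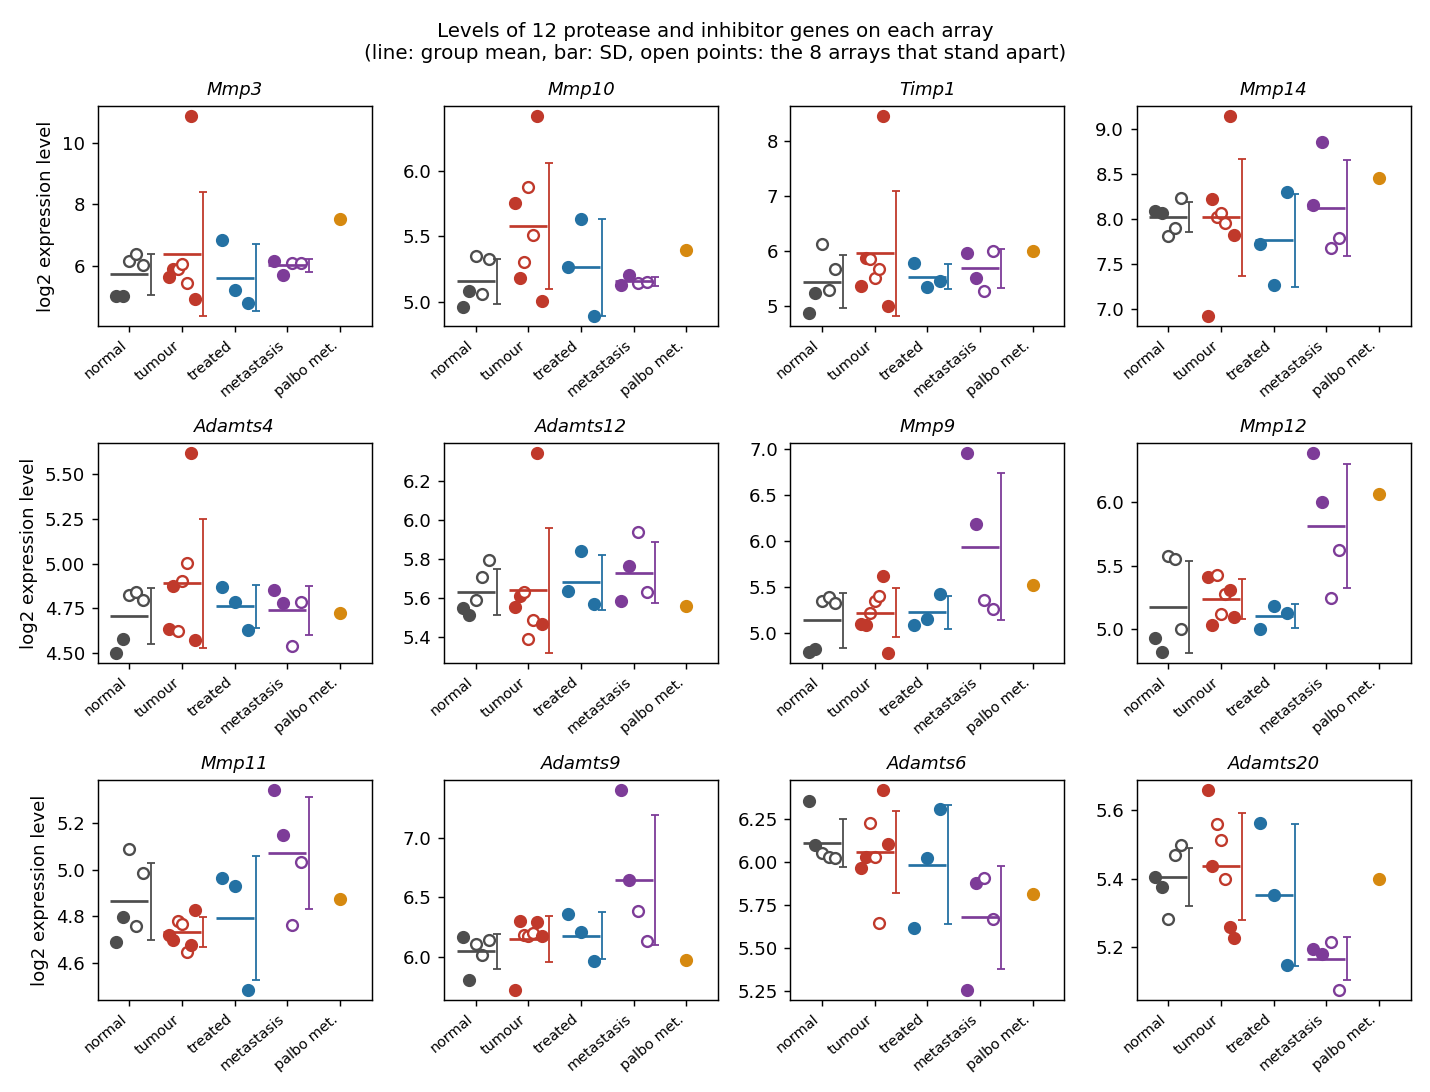
Log2 levels (y axis) of 12 protease and inhibitor genes by group (x axis), 1 point per array, with the group mean as a line, the SD as a bar and open points for the 8 arrays that stand apart. A single tumour bladder lies far above the rest for Mmp3, Timp1, Adamts4 and Adamts12 (10.88, 8.45, 5.62 and 6.34), and 2 of the 4 metastases lie above the other arrays for Mmp9 and Adamts9.

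The 7 tumour bladders from mice given Cre virus were compared with the 5 normal bladders, which had received no Cre. Loss of the floxed genes, inoculation and tumour growth cannot be told apart in this comparison. None of the 44 genes differed after adjustment, and the largest differences were those of Mmp3 and Timp1, set by 1 array. In the limma fit over all 20 arrays 0 of 30142 genes passed an adjusted p of 0.05 (smallest adjusted p 0.998), with 1281 genes, 4.25%, at an unadjusted p under 0.05. Mmp10 was the 1 gene of the set there, on the higher side (2.39% of all genes), at 5.58 ± 0.48 (SD, n = 7) against 5.16 ± 0.17 (SD, n = 5), a log2 difference of 0.42 (SE 0.19, limma unadjusted p = 0.0421, adjusted p = 0.998). It was 0.57 without the 8 arrays, 0.32 within them and 0.28 without tumour bladder 6. No gene of the set had such a p without normal bladder 1 or 2 or without tumour bladder 1, 4 or 6. The next smallest p-values belonged to Mmp23 (-0.17), Timp3 (-0.25), Adamts3 (0.31), Adamts16 (0.18) and Mmp1a (0.17). Mmp3 was 0.67 higher in tumours (SE 0.74), but -0.075 without tumour bladder 6 and -0.39 within the 8 arrays. Timp1 was 0.52 higher (SE 0.42), and 0.11 without tumour bladder 6 and -0.019 within the 8 arrays. The difference of Adamts3 was 0.16 without tumour bladder 2.

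In direction, 29 of the 44 genes had the higher mean in tumours, against 53.1% of all genes (32 and 61.4% without the 8 arrays, 18 and 45.3% within them), and the median difference was 0.041 in the set and 0.012 over all genes. No gene of the set had groups that did not overlap (0.166% of all genes). On the 12 arrays, with 4 tumours against 2 normal bladders, Mmp8 was 0.67 higher (limma unadjusted p = 0.00785, adjusted p = 0.993) and Timp3 -0.62 (unadjusted p = 0.00991), 2 genes of 44 where 3.34% of all genes had such a p. Within the 8 arrays Timp3 was 0.051. The 2 normal bladders of the 12 are the arrays with high Xist.

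Whether palbociclib with CDDP went with other protease levels was asked by comparing 3 treated with 7 tumour bladders. No gene of the set stood out, and most leaned to lower values in the treated bladders, as did most genes of the table in the main fit. Limma passed 0 of 30142 genes (smallest adjusted p 1.0), 103 genes (0.342%) had an unadjusted p under 0.05, and 0 of the 44 were among them. The smallest p-values were those of Mmp16 (-0.19, SE 0.13, limma unadjusted p = 0.156, n = 3 and 7), Mmp10 (-0.31), Mmp1a (-0.20), Mmp19 (-0.19), Adamts3 (-0.24) and Mmp8 (-0.23). Mmp3 was lower by the widest margin, -0.78 (SE 0.87), and -0.036 without tumour bladder 6. For Timp1 the difference was -0.43 (SE 0.50), and -0.0165 without that array.

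Of the 44 genes 10 had the higher mean in treated bladders, against 42.6% of all genes, with a median difference of -0.075 against -0.023. Without the 8 arrays the count was 8 (37.4%). It moved from 5 without tumour bladder 4 (41.8%) and 6 without tumour bladder 6 (41.3%) to 16 without treated bladder 3 (48.3%). Treated bladder 3 was the lowest array for 7 of the genes (8.19% of all genes) and the treated bladder with high Xist. Centring each array on its median also gave 16, with 57.1% of all genes higher in treated bladders. Most genes of the table then leaned the other way. The groups overlapped for all 44 (0.129% of all genes did not overlap). Cell markers differed as well: 0 of 15 neutrophil and 0 of 12 macrophage markers had the higher mean in treated bladders (median differences -0.32 and -0.36), and 8 of 8 smooth muscle and 13 of 14 urothelial markers did. Treated bladder 1 stood apart in its skeletal muscle markers, at a mean of 8.82 against 5.65 to 6.68 in the 7 tumour bladders. Their part was not tested. Without the 8 arrays Mmp8 was -0.41 (limma unadjusted p = 0.0462, adjusted p = 1.0), 1 of the 44 where 0.335% of all genes had such a p. A p above the threshold with 3 treated bladders does not show that levels were alike.

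Metastases were compared with the primary tumours, 4 against 7. The gelatinase Mmp9, the elastase Mmp12, Mmp11 and Adamts9 had higher means in metastases and Adamts6, Adamts17 and Adamts20 lower ones, none of them past the adjusted threshold. Limma passed 0 of 30142 genes (smallest adjusted p 0.207) and had 1745 (5.79%) at an unadjusted p under 0.05, with 7 of the 44: 4 higher (2.42% of all genes were) and 3 lower (3.37%). Mmp12 was 5.82 ± 0.49 (SD, n = 4) in metastases and 5.24 ± 0.16 (SD, n = 7) in tumours, a difference of 0.58 (SE 0.19, limma unadjusted p = 0.00616, adjusted p = 0.841). Mmp9 was 5.94 ± 0.79 against 5.23 ± 0.27, 0.71 higher (SE 0.25, limma unadjusted p = 0.0108, adjusted p = 0.841). Mmp11 differed by 0.34 (SE 0.12) and Adamts9 by 0.49 (SE 0.18). On the lower side, Adamts6 differed by -0.38, Adamts20 by -0.27 and Adamts17 by -0.21.

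The 4 higher genes rested mainly on metastases 1 and 2, while the 3 lower ones had the lower mean in both sets of arrays. All 7 were picked by their p over these same arrays, so a sign kept in both sets is no independent check. Within the 8 arrays, metastases 3 and 4 against tumour bladders 3, 4 and 5, Mmp9 differed by -0.011, Adamts9 by 0.075, Mmp12 by 0.16 and Mmp11 by 0.17, and without the 8 by 1.42, 0.90, 0.99 and 0.51. On those 12 arrays 3 genes passed (0.00995%), none of them in the set, and 6 of the 44 had an unadjusted p under 0.05 (5.11% of all genes). There the adjusted p of Mmp12 was 0.444 and that of Mmp9 0.462 by limma, and both metastases lay above all 4 tumours for these 4 genes (4.73% of all genes). Without metastasis 1 the 7 genes at an unadjusted p under 0.05 numbered 3, and the difference was 0.38 for Mmp9, 0.24 for Adamts9 and -0.24 for Adamts6. Adamts20 differed by -0.34 within the 8 arrays and -0.21 without them, and was the 1 gene of the set whose groups did not overlap over all 20 arrays, being lower in metastases (0.382% of all genes). Adamts17 likewise differed by -0.20 and -0.24, and Adamts6 by -0.18 and -0.56. On the 8 arrays alone 2 of the 44 had an unadjusted p under 0.05, both lower (5.2% of all genes in either direction). Markers of other tissues differed too: the mean of 5 liver markers was 8.06 in metastasis 2 and 4.84 to 5.80 on the other 19 arrays, 11 of 12 macrophage markers had the higher mean in metastases, and 0 of 8 smooth muscle and 2 of 14 urothelial markers did. Their part in these differences was not tested. Over the whole set 18 of 44 genes had the higher mean in metastases, against 43.9% of all genes (15 and 38.3% without the 8 arrays, 24 and 49.9% within them), and the median difference was -0.045 against -0.026.

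**Figure D5:**
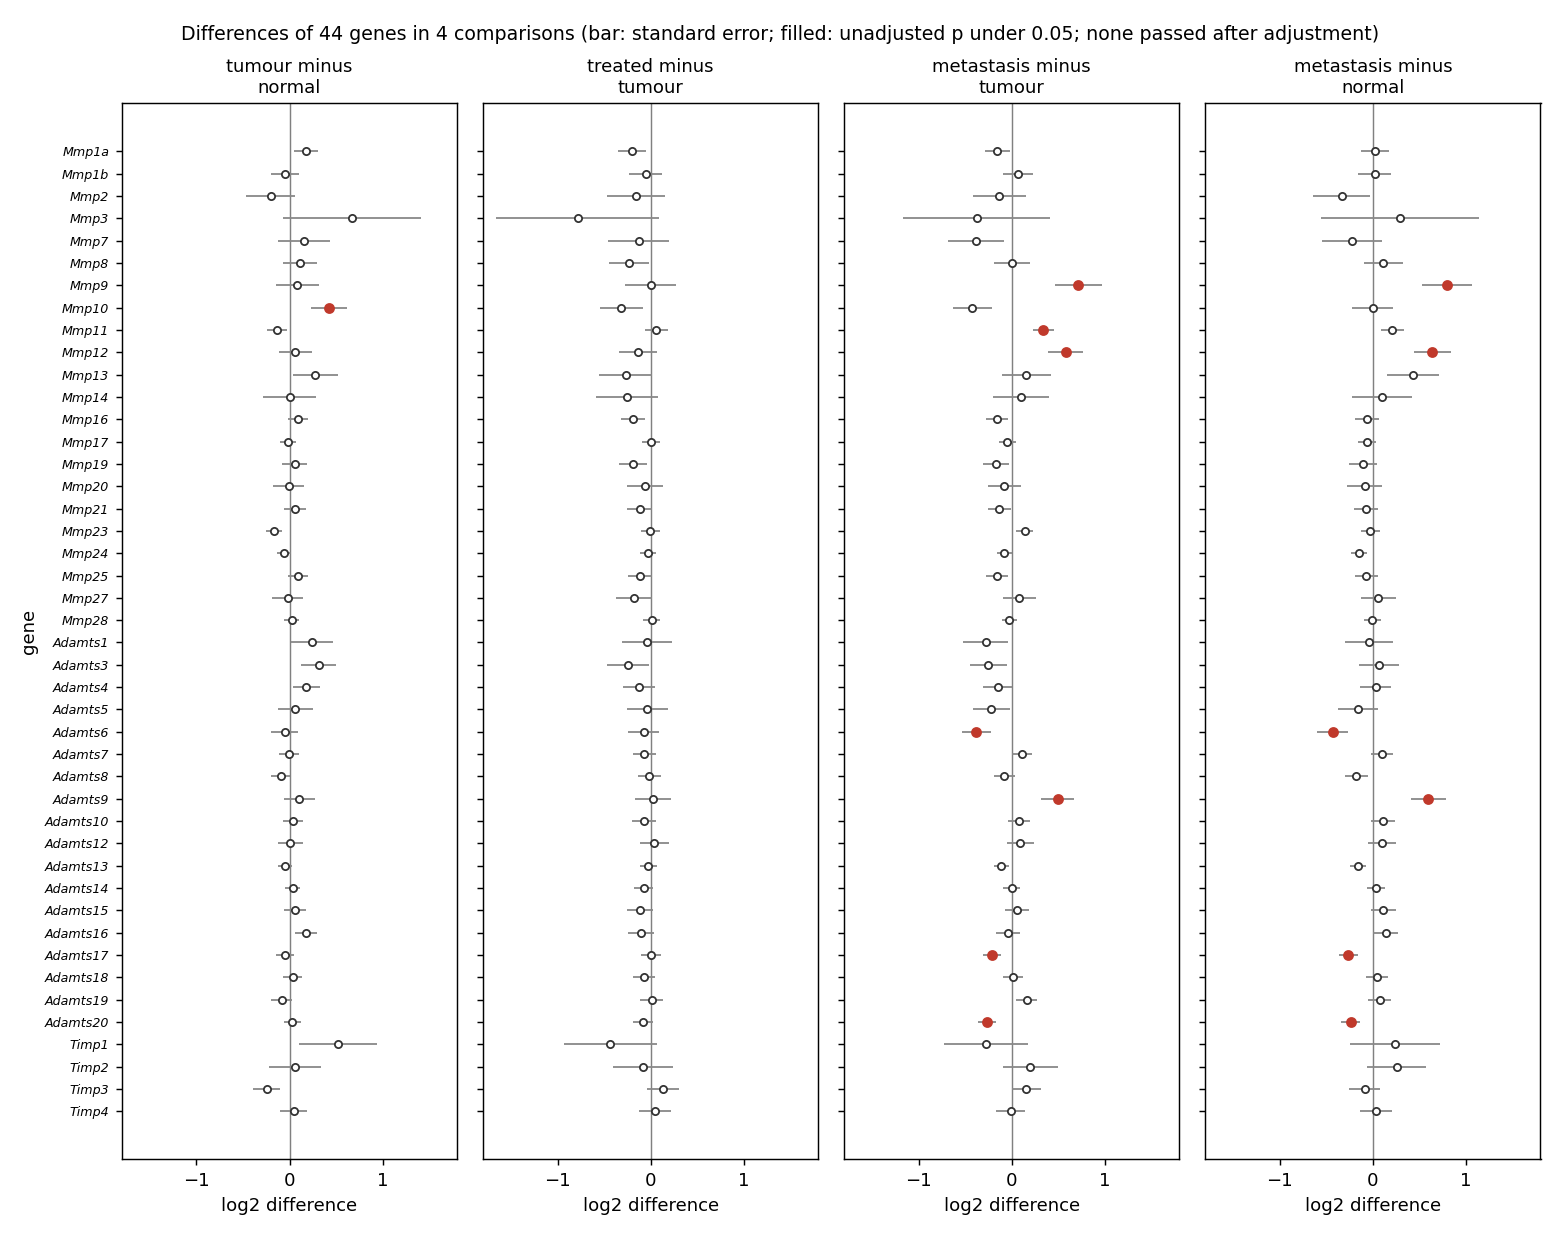
Log2 difference (x axis) of each of the 44 genes (y axis) in 4 comparisons from the limma fit over 20 arrays, with the standard error as a bar and filled points at an unadjusted p under 0.05. The filled points are Mmp10 in tumour against normal (0.42), 7 genes in metastasis against tumour and 6 in metastasis against normal, and none passed after adjustment.

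Against normal bladder, which shares its metastasis arrays with the comparison above, Mmp12 differed by 0.64 (SE 0.20, limma unadjusted p = 0.00487, adjusted p = 0.717). Adamts9 differed by 0.60 (SE 0.19) and Mmp9 by 0.80 (SE 0.27), and on the lower side Adamts6 by -0.43, Adamts17 by -0.26 and Adamts20 by -0.24. These 6 of 44 genes had an unadjusted p under 0.05 by limma where 2082 genes (6.91%) did, 3 higher (3.1%) and 3 lower (3.81%), and 0 of 30142 genes passed (smallest adjusted p 0.528). All 4 metastases lay under all 5 normal bladders for Adamts6, Adamts13, Adamts17 and Adamts20, 4 of the 44 where 1.79% of all genes did so (2.85% in either direction). Without the 8 arrays, with 2 arrays against 2, 3 genes passed (0.00995%), none in the set, and 7 of the 44 had an unadjusted p under 0.05 (6.67%). Mmp12 then differed by 1.32 (limma adjusted p = 0.133), the smallest adjusted p of any gene of the set in any setting, and Mmp9 by 1.75 (limma adjusted p = 0.195). Within them the differences were 0.056 and -0.045. Without metastasis 1 they were 0.45 and 0.46, that of Adamts9 was 0.34, and 4 genes of the set had an unadjusted p under 0.05. Adamts6 and Adamts17 kept the lower mean both without (-0.66 and -0.35) and within the 8 arrays (-0.24 and -0.19). As these genes were picked over the same arrays, this is no independent check. On the 8 arrays alone 0 of the 44 had an unadjusted p under 0.05 (5.25% of all genes). The mean of 8 smooth muscle markers was 5.42 to 6.80 in the metastases and 6.77 to 9.05 in normal bladder, with the higher mean in metastases for 0 of the 8. The mean was higher there for 2 of 14 urothelial, 0 of 8 endothelial and 11 of 12 macrophage markers. The part of these cell types was not tested. Of the 44 genes 24 had the higher mean in metastases, against 47.3% of all genes (24 and 47.6% without the 8 arrays, 14 and 45.8% within them), and the median difference was 0.025 against -0.013.

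Treated bladders were set against normal bladder, 3 against 5, with the same treated arrays as above. No gene of the set approached the threshold. Limma passed 0 of 30142 genes (smallest adjusted p 1.0), 108 genes (0.358%) and 0 of the 44 had an unadjusted p under 0.05, and no gene of the set had groups that did not overlap (0.65% of all genes). The smallest p-values were those of Mmp23 (-0.17, SE 0.11, limma unadjusted p = 0.134), Mmp2 (-0.36), Mmp27 (-0.20), Mmp24 (-0.092), Adamts8 (-0.11) and Mmp19 (-0.14). Without the 8 arrays 0 of the 44 had an unadjusted p under 0.05 (0.819% of all genes). The groups, then 3 against 2 arrays, did not overlap for 12 of the 44 (12.3% of all genes), 7 higher (6.24%) and 5 lower (6.08%). Of the 44 genes 14 had the higher mean in treated bladders (46.7% of all genes). The count was 28 without the 8 arrays (52.9%) and 25 without treated bladder 3 (50.3%). Which way most of the set leaned thus depended on the arrays kept.

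Other genes of matrix and pericellular proteolysis were read from the same fit: 50 of 53 listed genes were measured, and 0 passed in any comparison by limma over the 20 arrays. They include relatives without protease activity (Adamtsl), Adam proteases, the plasminogen system, cathepsins and inhibitors. Against tumours, the metastases had 3 of the 50 at an unadjusted p under 0.05 (5.79% of all genes), all higher: Ctsk, the collagen-degrading cathepsin K (1.18, SE 0.30, limma unadjusted p = 0.00104, adjusted p = 0.841), Serpinb2, an inhibitor of plasminogen activators (0.79), and Adam8, a leukocyte metalloproteinase (0.66). Ctsk read 7.61, 7.93, 6.54 and 5.73 in metastases 1 to 4 and 5.42 to 6.07 in the 7 tumour bladders, so metastases 1 and 2 were high, metastasis 3 less so and metastasis 4 among the tumours. The differences within the 8 arrays of Ctsk, Serpinb2 and Adam8 were 0.076, 0.53 and -0.0072, and without metastasis 1 they were 0.96, 0.38 and 0.43. Without the 8 arrays the difference of Ctsk was 2.22 against tumours (limma adjusted p = 0.00181) and 2.29 against normal bladder (limma adjusted p = 0.00497), so that Ctsk was the 1 gene of the 50 to pass, in a comparison of 2 metastases with 4 tumours or 2 normal bladders.

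Against normal bladder 5 of the 50 were higher at that p (3.1% of all genes): Ctss, a cathepsin of antigen-presenting cells (1.38), Ctsk (1.29), Adam8 (0.94), the urokinase receptor Plaur (0.69) and the plasminogen activator Plat (0.37). The same differences within the 8 arrays were -0.22, 0.35, 0.15, -0.076 and 0.014, so they rested mainly on metastases 1 and 2 against normal bladders 1 and 2. Without metastasis 1, Plaur differed by 0.38. The 6 lower ones (3.81% of all genes) were the membrane-anchored Mmp inhibitor Reck (-0.44), Adamtsl1 (-0.41), Adam28 (-0.38), the serine protease Klk8 (-0.33), the testican Spock3 (-0.33) and Adamtsl3 (-0.29). Within the 8 arrays Klk8 (-0.42), Spock3 (-0.19) and Adam28 (-0.16) kept the lower mean, while Reck (-0.052), Adamtsl3 (-0.017) and Adamtsl1 (0.013) were near 0. These genes too were picked over arrays that include the 8, so a kept sign is no independent check. Reck was highest in normal bladders 1 and 2 (6.76 and 6.62), against 5.98 to 6.14 in the other 3.

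Tumour against normal bladder had 1 of the 50 at an unadjusted p under 0.05 (4.25% of all genes), Spock3 (-0.23, and -0.13 within the 8 arrays), and neither comparison of treated bladders had any over the 20 arrays. Without the 8 arrays tumour against normal had 2 higher and 5 lower at that p (1.48% and 1.86% of all genes). Treated against normal then had 0 higher and 3 lower (0.186% and 0.634%), and treated against tumour had 0 (0.335%). Metastasis against tumour had 8 higher and 2 lower (3.14% and 1.97%), and metastasis against normal 9 and 6 (3.68% and 2.99%). The higher mean was in the first-named group for 25 of 50 in tumour against normal (53.1% of all genes), 25 in treated against tumour (42.6%), 28 in metastasis against tumour (43.9%), 19 in treated against normal (46.7%) and 30 in metastasis against normal (47.3%). Without the 8 arrays these counts were 31 (61.4% of all genes), 21 (37.4%), 25 (38.3%), 26 (52.9%) and 27 (47.6%). Of the 7 genes for Adamts substrates (aggrecan, versican, brevican, neurocan, Comp, Vwf and Hapln1) 0 had an unadjusted p under 0.05 in the 5 comparisons.

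PALBO-MET is 1 array with no replicate, so its levels are given without a test. Mmp3 was the 1 gene of the set at least 1 log2 unit above the mean of the 4 metastases (7.51 against 6.01), where 1.57% of all genes were, and 0 genes were that far below (1.55%). It lay above all 4 metastases for 11 of the 44 genes (25.3% of all genes), among them Mmp8, Mmp10, Mmp27, Timp1 and Adamts20, and below all 4 for 4 (17.1%), Adamts5, Adamts9, Adamts12 and Timp3. Its Mmp12 was in the range of metastases 1 and 2, and its Adamts9 (5.98) was at the level of normal bladder.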

How the data were processed

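The processed values came from Affymetrix whole-transcript arrays hybridised with RNA from an extraction kit for formalin-fixed tissue, 12 ng per sample. The deposited values are log2 levels that the authors made with RMA in Affymetrix Expression Console, per the submitters' processing notes; the log base is not stated in the sources used here, and levels above 16, up to 22.0, are outside what a scanner's log2 intensity usually reaches. The table held 65956 rows, of which 30604 had 1 symbol in the platform annotation and 2146 had several; 827 symbols were updated by gene ID, and the row with the highest mean was kept for each of 30142 genes.

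Group means were fitted over all 20 arrays with limma 3.58.1 in R 4.3.3 (lmFit, eBayes, Benjamini-Hochberg adjustment over 30142 genes, threshold 0.05), with tables made in Python 3.11.15 and pandas 2.3.3. The code was tested on simulated data. PALBO-MET was fitted as a group of its own and entered no test of the main fit. In 1 alternative it was counted as a metastasis, in both metastasis comparisons. The number of arrays limits the precision. The genes followed and the lists were chosen with earlier results of these data known. Genes given in full were, per comparison, the 6 with the smallest p and those with separate groups and an unadjusted p under 0.05, the 10 with the highest mean, the 10 with the widest range, and the Timp genes; the others named were chosen after their values were seen. Alternatives changed the arrays fitted, the weights, the variance prior, the normalization, the centring, the filter on dim genes, the replicate number as a block and each array left out; those on the 8 arrays that stand apart were chosen after seeing the data. These 8 were the arrays with an SD of dim genes above 0.3 and no correlation of deviations above 0.25. Sequence windows came from RefSeq tables for GRCm38.p6. Some of the floxed alleles of the mice are not reported here.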

Additional observations from a re-analysis of the deposited data

Results flagged for a closer look

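Within groups of 4 to 7 arrays, 9 gene levels of the 132 groups examined lay farther from their neighbours than Dixon's 95% critical value allows; chance gives about 1 in 20. Tumour bladder 6 gave 4 of them, all high: Mmp3 at 10.88 with the next tumour bladder at 6.08, Timp1 at 8.45 against 5.86, Adamts12 at 6.34 against 5.63, and Adamts4 at 5.62 against 5.0. Tumour bladder 1 was low for Adamts9, at 5.73 with the nearest at 6.17. Normal bladder 1 was high for Adamts6 (6.35, nearest 6.09) and Mmp23 (6.17, nearest 6.06). Normal bladder 5 was high for Mmp13 (5.76, nearest 4.78), and normal bladder 4 was low for Mmp1a (4.26, nearest 4.74); both are among the 8 arrays that stand apart.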

How the results depend on the processing

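No gene of the set passed the adjusted threshold under any alternative; the lowest limma adjusted p was 0.133. Of 711 values for 34 gene differences, 701 kept their sign and 10 turned it. Within the 8 arrays that stand apart, tumour minus normal was 0.051 for Timp3, -0.39 for Mmp3 and -0.019 for Timp1, and Mmp9 was -0.011 for metastasis minus tumour and -0.045 for metastasis minus normal. Without them, treated minus normal was 0.071 for Mmp27 and 0.0054 for Adamts8. With array weights, Mmp3 was 0.40 for treated minus tumour and Mmp19 0.093 for treated minus normal, and Mmp3 ran from -0.075 (without tumour bladder 6) to 0.92 for tumour minus normal with an array left out. The cause was not tested.

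Within the 8 arrays the number of the 44 with the higher mean was 18 for tumour against normal (45.3% of all genes). It was 14 there for metastasis against normal (45.8%). For treated against tumour it was 16 after quantile normalization (50.7%) or median centring (57.1%), and 5 to 16 with an array left out (39.4% to 48.3%). For treated against normal it was 25 with array weights (48.8%) and 28 without the 8 arrays (52.9%). With an array left out it was 12 to 25 (42.6% to 51.4%). Genes of the whole table that passed numbered 3 without the 8 arrays in both metastasis comparisons, and 1 for metastasis against normal with only those groups fitted. Genes of the set at an unadjusted p under 0.05 numbered 0 to 2 in tumour against normal with an array left out (3.01% to 6.69% of all genes), 5 with array weights (10.2%) and 0 within the 8 arrays (5.39%). In metastasis against tumour there were 3 to 8 (3.88% to 9.43%), 5 (6.53%) and 2 (5.2%) respectively. In metastasis against normal there were 4 to 7 (4.9% to 7.42%), 8 (13.0%) and 0 (5.25%). With PALBO-MET counted as a metastasis there were 6 against tumours (4.53%) and 5 against normal bladder (6.71%), and 0 of the 44 passed. Array weights gave 1 (8.33%) in treated against tumour and 4 (9.99%) in treated against normal.

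Same-numbered arrays did not deviate together (20 pairs, correlations from -0.51 to 0.33, 1 above 0.1). These correlations cannot exclude pairing, since some pairs include arrays that stand apart and samples of 1 animal need not deviate together. The labels do not say whether equal numbers mark 1 animal. With the replicate number as a block, 0 of the 44 passed. At an unadjusted p under 0.05 there were 4 in tumour against normal (5.88% of all genes), 7 in metastasis against tumour (6.28%) and 4 in metastasis against normal (6.96%). Treated bladders had 0 against tumours (1.33%) and 0 against normal bladders (0.869%). Leaving out dim genes removed 11 of the 44, for which small differences are hard to see.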
